A study of Mus musculus with 16 samples.

Results

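The comparison set myoblasts of the msx2 line, which carries doxycycline-inducible msx2 and GFP, against myoblasts of the GFP line, which carries inducible GFP only. Both lines derive from pmi28, a mouse myoblast line whose cells fuse into multinucleated myotubes. None of these myoblasts received doxycycline, and they grew in medium with 20% fetal bovine serum. The members are 4 of the 16 libraries of the series, 2 of msx2-line myoblasts and 2 of GFP-line myoblasts, chosen by their labels, with all 19799 genes that have a symbol in the table of read counts. Of these genes, 16245 passed the filter on low counts and were tested, and 3554 were not. Isolated myotubes served as context: uninduced myotubes of the msx2 line and of the GFP line (3 libraries each) and msx2-line myotubes after 24 h with doxycycline at 2 µg/ml (3 libraries). The series also holds GFP-line myotubes after the same doxycycline treatment (3 libraries). These libraries were in the fit that sets the spread and in the plot of gene levels by library. No comparison between groups reported here used them. Myotubes had formed in medium with 10% horse serum over 3 days, were caught on a mesh and were kept with AraC, which kills dividing cells. Each construct is represented by 1 line, so the construct and any other difference between the lines cannot be told apart, and whether a line is 1 clone is not given in the sources used here.

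Myoblasts are committed muscle precursors that divide in rich medium and leave the cell cycle, fuse and build contractile fibres when serum is withdrawn. The basic helix-loop-helix factors Myf5 and MyoD mark the precursor, and myogenin, encoded by Myog, is switched on as cells enter differentiation, ahead of the genes of the sarcomere, the contractile unit. Msx2 encodes a homeodomain protein known as a repressor of differentiation. Notch signalling, through receptors on the cell surface and target genes of the Hes and Hey families, is known for holding muscle precursors undifferentiated.

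Msx2 RNA was present in msx2-line myoblasts without induction, at 16.8 and 16.4 CPM, against 1.59 and 1.28 CPM in GFP-line myoblasts. CPM are read counts scaled by a library size adjusted by TMM, edgeR's scaling between libraries. The libraries of the lines did not overlap. The fold change was 11.5, or 3.53 ± 0.16 (SE) on the log2 scale (adjusted p = 4.96e-09, edgeR quasi-likelihood F-test with Benjamini-Hochberg adjustment over all genes tested, 2 libraries against 2). All fold changes below are msx2 line over GFP line on the log2 scale, with their SE and this adjusted p, and a gene is called higher or lower only where that p is under 0.05. Induced msx2-line myotubes held 1440.4 ± 87.1 CPM of Msx2 (SD, n = 3). The counts do not separate reads of the transgene from reads of the cell's own gene, and the GFP transgene was not analysed here. Msx1, a close relative, was at 2.90 and 2.10 CPM in msx2-line and 2.29 and 1.87 CPM in GFP-line myoblasts (adjusted p = 0.623). Msx3 was too low to be tested, at 0.446 and 0.288 CPM in the msx2 line and 0.373 and 0.228 CPM in the GFP line.

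**Figure D1:**
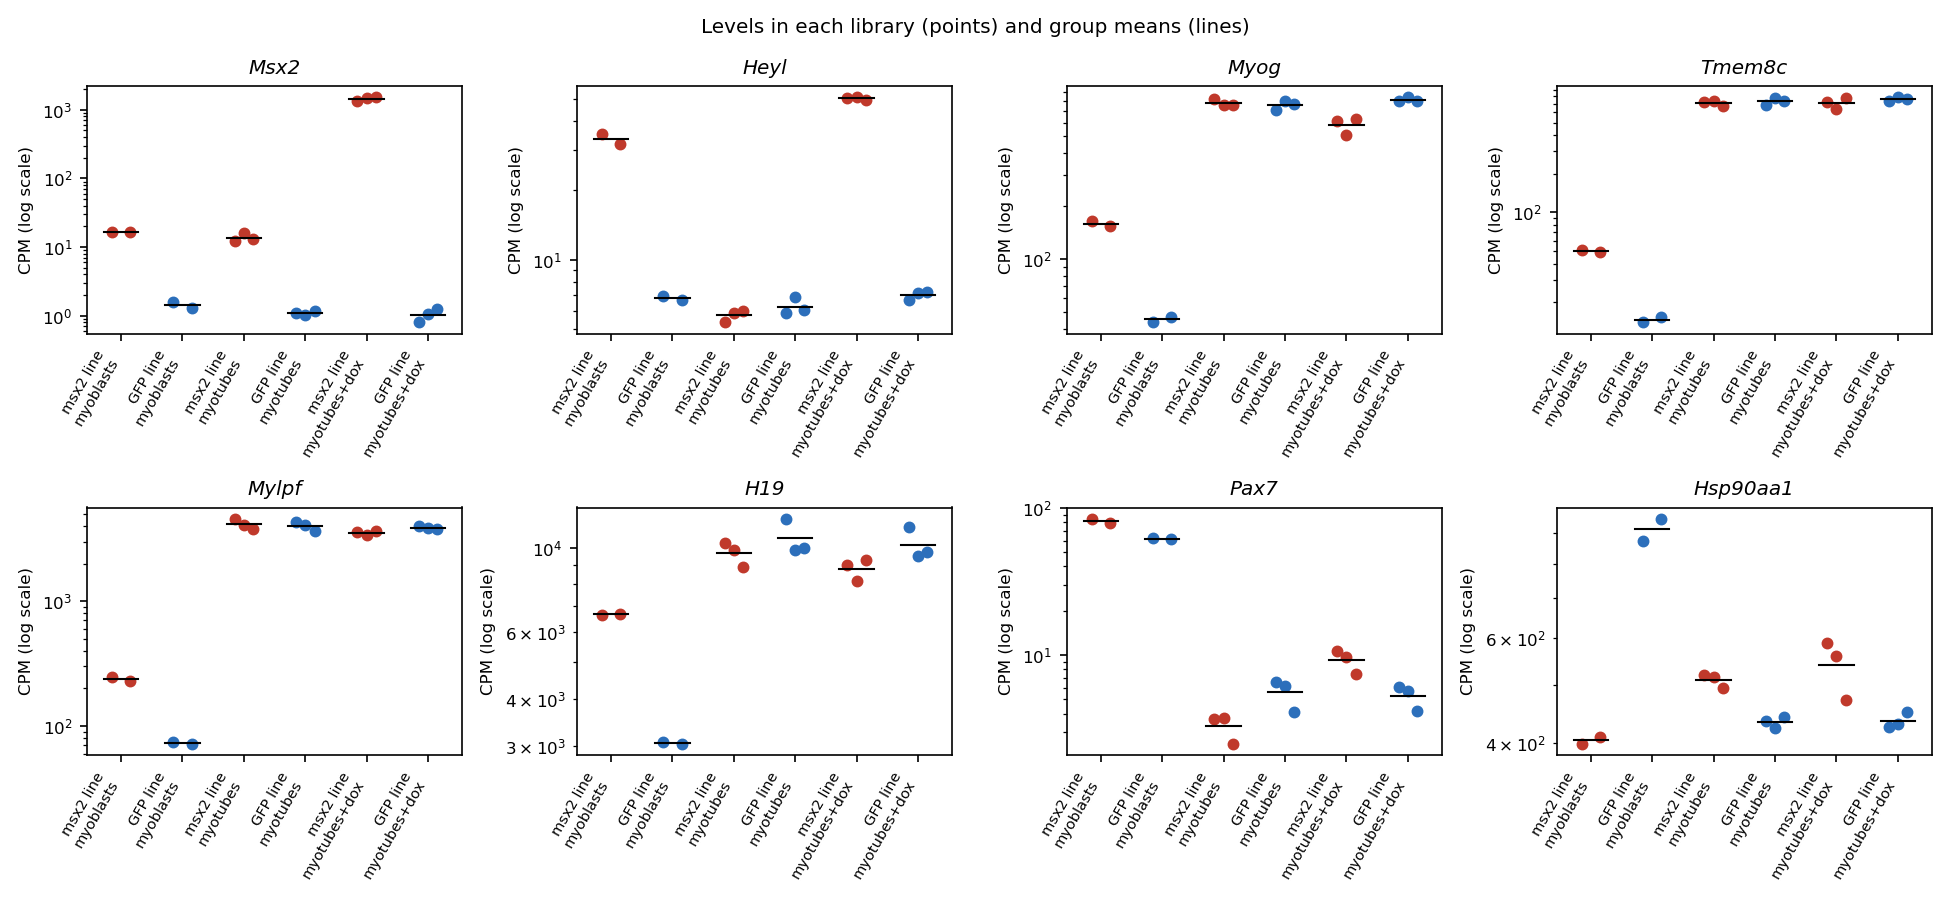
Levels of 8 genes in each of the 16 libraries, in CPM on a log axis. Points are libraries, lines are group means, and each msx2-line group (red) stands left of the GFP-line group (blue) of the same stage. Heyl, Myog, Tmem8c, Mylpf and H19 are higher and Hsp90aa1 is lower in msx2-line than in GFP-line myoblasts, and Pax7 is at 84.4 and 78.6 CPM in msx2-line and 62.0 and 61.4 CPM in GFP-line myoblasts.

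Of the 16245 genes tested, 1476 were higher and 1176 lower in msx2-line myoblasts, together 16.3% (9.09% higher and 7.24% lower). These shares are the background for the counts of every gene list below. Most differences were small: the median size among these genes was 0.44 on the log2 scale, and 134 genes were at least 2-fold higher and 68 at least 2-fold lower. The split depended on scaling and filter, with 829 higher and 1411 lower under upper-quartile scaling, and 1135 higher and 1325 lower with a filter of 5 CPM in 2 libraries. Library totals were 26879290 and 28170368 reads in msx2-line myoblasts and 23637685 and 23876573 reads in GFP-line myoblasts, in a series between 19772048 and 33070931. The GFP-line libraries differed little beyond counting noise (chi-square per degree of freedom 1.95 over genes with at least 20 reads), while the msx2-line libraries gave 24.8 and pairs of myotube libraries 10.5 to 31.3. Whether a line's libraries began as separate cultures is not stated in the labels, and each p-value reflects only the spread between libraries within the groups of the whole series, technical spread included. Higher and lower genes numbered 460 and 703 without GFP-line replicate 1, 321 and 534 without GFP-line replicate 2, and 263 and 510 without msx2-line replicate 1. Without msx2-line replicate 2 they numbered 1190 and 1073.

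The line difference moved with the GC content of the transcript. In the tenth of genes with the lowest GC content (31.0 to 41.2%) the median difference was -0.30 on the log2 scale, with 11 genes higher and 501 lower. In the tenth with the highest GC content (57.8 to 74.8%) it was 0.28, with 366 higher and 6 lower. In uninduced myotubes the same medians were -0.02 and 0.03. With an offset for GC content in each library, 735 genes were higher and 434 lower, among them 364 of the 1476 higher genes and 406 of the 1176 lower genes. The part of this gradient in the results was not tested, and counts with the GC offset are given beside those of the gene lists.

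**Figure D2:**
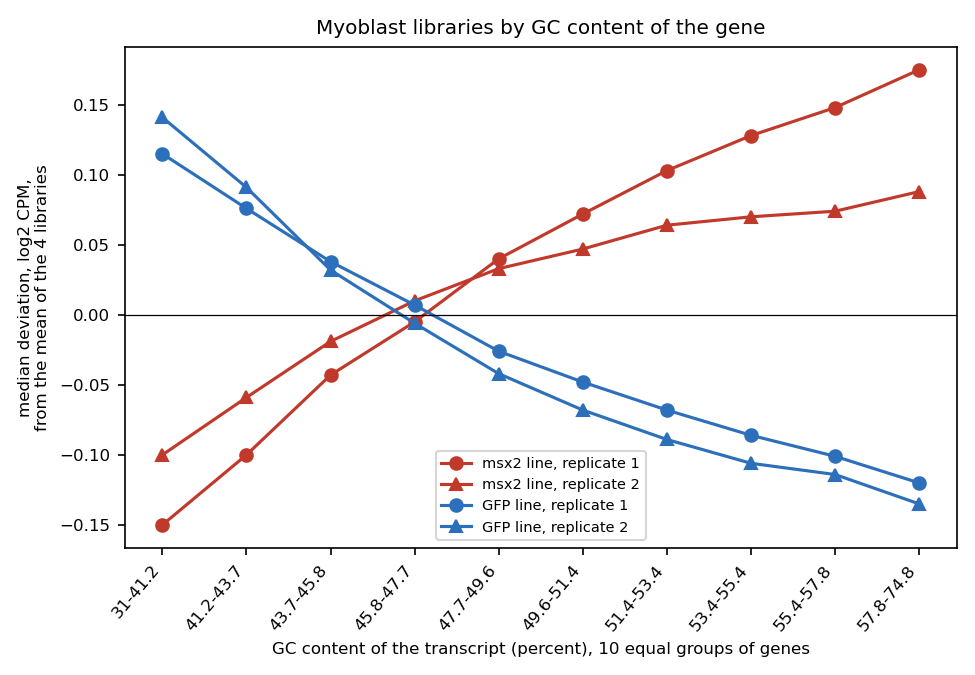
Median deviation of each of the 4 myoblast libraries from their mean, on the log2 scale, in 10 groups of genes ordered by GC content of the transcript. In the lowest group the msx2-line libraries (red) are at -0.15 and -0.10 and the GFP-line libraries (blue) at 0.12 and 0.14, and in the highest group the msx2-line libraries are at 0.18 and 0.09 and the GFP-line libraries at -0.12 and -0.14.

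Genes of the contractile apparatus were higher in msx2-line myoblasts as a group. Of 49 sarcomere genes tested, 34 were higher (69.4%, where 9.09% of all genes were), 26 of them at least 2-fold. The median difference was 1.21 on the log2 scale, where that of all genes tested was 0.08. None was lower by edgeR, at an unadjusted p under 0.05 or by DESeq2. With the GC offset 27 were higher and the median was 1.07, and 25 or 26 were higher when any 1 of the 4 myoblast libraries was left out. The summed level of the list was 4883 and 4859 CPM in msx2-line myoblasts, against 3213 and 3087 CPM in GFP-line myoblasts. In uninduced myotubes it was 63450 to 75140 CPM in the msx2 line and 70770 to 81310 CPM in the GFP line. As a percentage of the mean in the same line's uninduced myotubes, the 34 genes had a median level of 3.88% (0.648 to 87.9%) in msx2-line myoblasts and 1.23% (0.27 to 80.1%) in GFP-line myoblasts. Since the 34 were chosen as higher in msx2-line myoblasts, these percentages describe them and add no support. In bulk RNA, more cells that express these genes and more of their RNA per cell cannot be told apart.

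**Figure D3:**
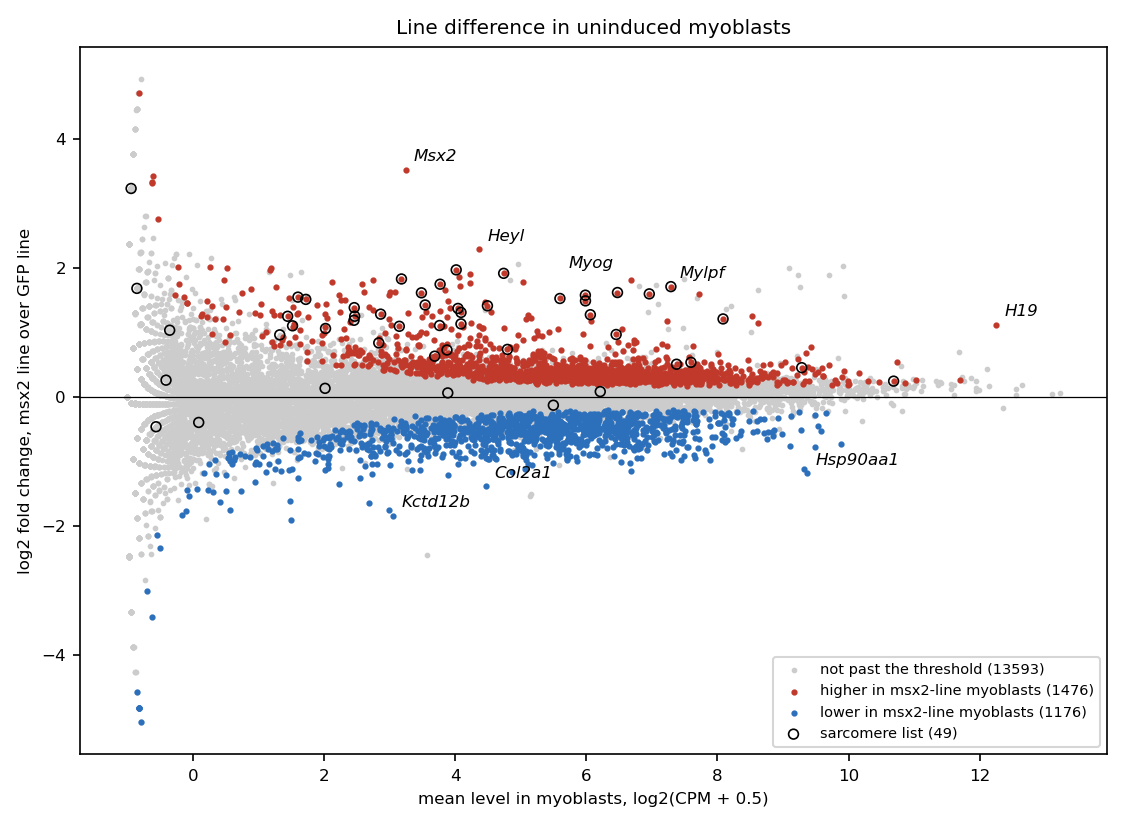
Log2 fold change of msx2-line over GFP-line myoblasts against the mean log2 level in myoblasts, for the 16245 genes tested. Red points are the 1476 genes higher and blue points the 1176 genes lower in the msx2 line, grey points are the other 13593, and circles mark the 49 sarcomere genes, of which 46 lie above 0.

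Thin-filament genes, through which calcium controls contraction, were among them. Tnni1, the slow skeletal troponin I, had 141 and 126 CPM in msx2-line myoblasts, against 45.0 and 41.8 CPM in GFP-line myoblasts (1.62 ± 0.09, adjusted p = 3.28e-08). Tnnc1, the slow and cardiac troponin C, had 96.7 and 91.9 CPM in the msx2 line against 31.4 and 31.6 CPM in the GFP line (1.58 ± 0.09, adjusted p = 4.22e-08), and Tnni2, the fast troponin I, had 13.3 and 13.5 CPM against 3.55 and 3.97 CPM in the GFP line (1.83 ± 0.25, adjusted p = 3.07e-04). The replicates of each line lay close together and the lines apart for all 3 genes. Acta1, the skeletal muscle actin, was already abundant in both lines, at 376 and 382 CPM in the msx2 line and 161 and 166 CPM in the GFP line (1.21 ± 0.11, adjusted p = 8.53e-06). Over the list, 43 of 49 genes had both msx2-line libraries above both GFP-line libraries, where 42.6% of all genes tested did (68.1% had no overlap in either direction).

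Genes of the thick filament include the following. Mylpf, the regulatory light chain of fast skeletal myosin, had 248 and 231 CPM in msx2-line and 74.0 and 71.8 CPM in GFP-line myoblasts (1.71 ± 0.09, adjusted p = 3.28e-08). Myh3, the embryonic myosin heavy chain, had 181 and 193 CPM in the msx2 line against 58.5 and 64.4 CPM in the GFP line (1.60 ± 0.14, adjusted p = 4.00e-06). Mybph, a myosin-binding protein, had 42.6 and 40.4 CPM against 11.5 and 10.4 CPM in the GFP line (1.92 ± 0.15, adjusted p = 1.61e-06). The adult heavy chain genes Myh1, Myh2 and Myh4 are near-identical copies whose reads the counting could split, and their values are uncertain. The genes of the giant sarcomere proteins did not pass the test. Ttn, for titin, had 58.3 and 93.5 CPM in msx2-line myoblasts and 71.4 and 71.6 CPM in GFP-line myoblasts (0.09, adjusted p = 0.784), with the msx2-line libraries on either side of the GFP-line pair. Neb, for nebulin, had 38.5 and 47.0 CPM in the msx2 line and 48.4 and 44.9 CPM in the GFP line (-0.12, adjusted p = 0.677).

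Genes for the energy and calcium supply of muscle stood among the 12 largest rises. Ckm, the muscle creatine kinase, had 26.2 and 23.9 CPM in msx2-line and 5.83 and 6.89 CPM in GFP-line myoblasts (1.97 ± 0.22, adjusted p = 6.81e-05). Atp2a1, the fast calcium pump of the sarcoplasmic reticulum, had 25.8 and 24.8 CPM in the msx2 line against 7.00 and 6.93 CPM in the GFP line (1.86 ± 0.18, adjusted p = 1.94e-05). Mb, for the oxygen store myoglobin, had 29.2 and 27.1 CPM against 8.16 and 8.30 CPM in the GFP line (1.77 ± 0.23, adjusted p = 2.22e-04). Casq2, which stores calcium in the sarcoplasmic reticulum and is outside these 12, differed by 1.42 ± 0.08 (adjusted p = 4.28e-08). Ckm, Atp2a1, Mb, Tnni1, Tnni2, Mylpf and Mybph passed with the GC offset as well, and without each myoblast library in turn.

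Promoter windows of the sarcomere genes that were higher are shown because these genes moved together. A RefSeq window (GRCm38.p6) covers 250 bases before and 50 after the start of a gene, and 26 of the 34 genes matched one. CAGCTG, a form of the E box that factors of the MyoD family bind and that reads the same on both strands, was in 11 of the 26 (42.3%), where 15.9% of the windows of all genes tested held it. Over all higher genes the share was 18.7% and over all lower genes 13.6%. The MEF2 consensus, searched on both strands, was in 5 of the 26 (19.2%), where 2.02% of all windows held it. TAATTG, a core motif of homeodomain proteins, searched on both strands, was in 1 of the 26 (3.85%), with 5.13% over all windows. A match describes letters and not binding. The windows of 4 genes follow, 2 with CAGCTG and 2 with CAGCTG and a MEF2 consensus match, with the matches in capitals, which do not overlap.
Mylpf, chr7:127211358-127211657, plus strand: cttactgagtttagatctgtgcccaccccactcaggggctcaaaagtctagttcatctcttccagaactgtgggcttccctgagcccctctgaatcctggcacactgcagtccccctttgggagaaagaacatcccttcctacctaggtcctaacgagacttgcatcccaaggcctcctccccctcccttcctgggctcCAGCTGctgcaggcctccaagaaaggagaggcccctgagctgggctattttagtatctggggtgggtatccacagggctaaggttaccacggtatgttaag
Mybph, chr1:134193198-134193497, plus strand: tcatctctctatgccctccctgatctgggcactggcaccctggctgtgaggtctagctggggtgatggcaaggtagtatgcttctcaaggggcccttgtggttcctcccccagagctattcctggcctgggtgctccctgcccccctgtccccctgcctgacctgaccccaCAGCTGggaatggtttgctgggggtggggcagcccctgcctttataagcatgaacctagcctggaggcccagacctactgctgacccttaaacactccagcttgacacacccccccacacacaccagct
Klhl41, chr2:69669870-69670169, plus strand: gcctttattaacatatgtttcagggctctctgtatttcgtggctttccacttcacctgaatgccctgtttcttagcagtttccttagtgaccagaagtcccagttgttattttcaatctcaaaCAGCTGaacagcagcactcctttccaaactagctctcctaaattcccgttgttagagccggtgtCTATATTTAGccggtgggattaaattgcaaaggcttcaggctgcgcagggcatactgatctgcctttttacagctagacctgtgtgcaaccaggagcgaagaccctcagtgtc
Myoz2, chr3:123034938-123035237, minus strand: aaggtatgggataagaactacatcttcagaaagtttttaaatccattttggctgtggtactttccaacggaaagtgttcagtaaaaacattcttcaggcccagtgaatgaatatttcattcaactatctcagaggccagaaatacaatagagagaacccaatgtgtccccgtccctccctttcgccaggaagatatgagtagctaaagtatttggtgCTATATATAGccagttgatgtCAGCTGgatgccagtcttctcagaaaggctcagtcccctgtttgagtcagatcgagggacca
Mylpf and Mybph are described above. Klhl41, for a kelch protein of the sarcomere, had 22.2 and 24.0 CPM in msx2-line and 8.58 and 9.21 CPM in GFP-line myoblasts (1.38 ± 0.23, adjusted p = 0.00126). Myoz2, for a Z-disc protein that binds calcineurin, had 3.83 and 4.48 CPM in the msx2 line against 1.12 and 1.78 CPM in the GFP line (1.52 ± 0.21, adjusted p = 2.26e-04).

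Among transcription factors of myogenesis, Myog had 165 and 153 CPM in msx2-line myoblasts and 43.7 and 47.0 CPM in GFP-line myoblasts (1.81 ± 0.10, adjusted p = 3.28e-08), a fold change of 3.51. The mean in myoblasts was 20.6% of that in uninduced myotubes in the msx2 line and 5.98% in the GFP line. Myod1 had 279.7 and 245 CPM in msx2-line and 177 and 183 CPM in GFP-line myoblasts (0.54 ± 0.09, adjusted p = 5.93e-04), a smaller difference without overlap. Myf5 had 97.7 and 86.7 CPM in the msx2 line and 73.7 and 79.3 CPM in the GFP line (0.27 ± 0.15, adjusted p = 0.221), which did not pass, although it did with the GC offset (0.54, adjusted p = 0.0319). Myf6, the family member of mature fibres, was below 1 CPM in all 4 libraries (adjusted p = 0.818).

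Of 21 muscle transcription factors tested, 7 were higher (33.3%) and 1 lower (4.76%), where 9.09% and 7.24% of all genes were. The median was 0.33 on the log2 scale, and with the GC offset 8 were higher and 1 lower. Without 1 myoblast library 5 were higher. Smyd1, a muscle histone methyltransferase, had 47.7 and 45.8 CPM in msx2-line and 20.2 and 20.4 CPM in GFP-line myoblasts (1.21 ± 0.15, adjusted p = 6.91e-05). Sox8, a SOX factor known from satellite cells, the stem cells of muscle, had 6.68 and 5.30 CPM in the msx2 line against 1.40 and 2.05 CPM in the GFP line (1.79 ± 0.29, adjusted p = 7.59e-04). Both lines expressed Sox8 at a low level, and a lack of overlap between the libraries was a condition for naming it among the largest rises. Eya1, a transcriptional cofactor of muscle development, was the lower gene, with 15.0 and 15.3 CPM in the msx2 line and 21.1 and 25.0 CPM in the GFP line (-0.61 ± 0.13, adjusted p = 0.0048), a call lost without GFP-line replicate 2 or msx2-line replicate 1. Pax3, the early precursor factor, was at 15.6 and 17.6 CPM in the msx2 line and 16.0 and 17.3 CPM in the GFP line (adjusted p = 1.0). Pax7, which marks satellite cells, was at 84.4 and 78.6 CPM in the msx2 line and 62.0 and 61.4 CPM in the GFP line and did not pass (0.40 ± 0.19, adjusted p = 0.165).

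Of 25 fusion genes, 3 were higher and 1 lower, shares near those of all genes, and 4 and 0 with the GC offset. Tmem8c encodes myomaker, the membrane protein required for myoblast fusion. It had 51.0 and 49.3 CPM in msx2-line myoblasts and 13.9 and 15.2 CPM in GFP-line myoblasts (1.78 ± 0.10, adjusted p = 3.28e-08). Its mean in myoblasts was 7.05% of that in uninduced myotubes in the msx2 line and 2.00% in the GFP line. Cdh15, for M-cadherin, had 144 and 134 CPM in the msx2 line against 71.1 and 82.9 CPM in the GFP line (0.85 ± 0.13, adjusted p = 5.69e-04), and both were higher with the GC offset and without each library. Anxa1, for annexin A1, was the lower gene, at 612 and 645 CPM in the msx2 line and 913 and 889 CPM in the GFP line (-0.52 ± 0.11, adjusted p = 0.00382), and did not pass with the GC offset or without msx2-line replicate 1.

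Heyl, a target gene of Notch signalling, had 35.1 and 31.9 CPM in msx2-line myoblasts and 6.95 and 6.70 CPM in GFP-line myoblasts, a fold change of 4.90 (2.29 ± 0.10, adjusted p = 3.75e-09). The difference was 2.12 with the GC offset. In uninduced myotubes Heyl stood at 5.74 ± 0.352 CPM in the msx2 line and 6.25 ± 0.532 CPM in the GFP line (SD, n = 3 each; adjusted p = 0.741, edgeR). In induced msx2-line myotubes it was at 50.3 ± 0.621 CPM (SD, n = 3), higher than in uninduced ones by 3.12 ± 0.08 on the log2 scale (adjusted p = 9.66e-13, edgeR).

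Of 24 genes of Notch signalling, 9 were higher (37.5%) and none lower (edgeR; none at an unadjusted p under 0.05 and none by DESeq2), with a median of 0.34 on the log2 scale. The count was 6 with the GC offset and 4 to 7 when 1 myoblast library was left out. Among receptors, Notch3 had 215 and 202 CPM in msx2-line and 87.5 and 95.5 CPM in GFP-line myoblasts (1.19 ± 0.36, adjusted p = 0.0422), and Notch1 had 68.5 and 63.9 CPM in the msx2 line against 40.0 and 46.7 CPM in the GFP line (0.61 ± 0.15, adjusted p = 0.0122). Neither passed with the GC offset. The ligand Dll1 had 11.1 and 9.95 CPM in the msx2 line against 4.81 and 4.83 CPM in the GFP line (1.12 ± 0.26, adjusted p = 0.00869), and Lfng, a glycosyltransferase that modifies Notch, differed by 0.73 ± 0.14 (adjusted p = 0.00311). Hes1, a target gene, differed by 0.61 ± 0.12 (adjusted p = 0.00262), and Hes6, an inhibitor of Hes1 known to promote myogenesis, had 137 and 133 CPM in the msx2 line against 76.7 and 73.7 CPM in the GFP line (0.84 ± 0.11, adjusted p = 8.66e-05). These 4 genes passed with the GC offset. Hey1, another target, had 15.5 and 13.6 CPM in the msx2 line and 13.9 and 13.3 CPM in the GFP line (adjusted p = 0.846), and Rbpj, the DNA-binding factor of the pathway, had 88.3 and 83.1 CPM against 91.7 and 89.5 CPM in the GFP line (adjusted p = 0.538).

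Markers of satellite cells and myoblasts were higher in 11 of 24 cases (45.8%, where 9.09% of all genes were) and lower in none. None was lower at an unadjusted p under 0.05 (edgeR) or by DESeq2. Under the GC offset 8 were higher, and 7 or 8 without 1 myoblast library. Heyl and Notch3 are in this list too. Des, for the intermediate filament desmin, had 930.5 and 813 CPM in msx2-line and 519 and 497 CPM in GFP-line myoblasts (0.78 ± 0.08, adjusted p = 2.70e-05). Itga7, the laminin receptor subunit of muscle, had 186 and 175 CPM in the msx2 line against 117 and 122 CPM in the GFP line (0.60 ± 0.09, adjusted p = 3.04e-04). Fgfr4, a fibroblast growth factor receptor, had 29.1 and 27.6 CPM against 13.3 and 13.5 CPM in the GFP line (1.08 ± 0.14, adjusted p = 1.01e-04). Spry1, which dampens signalling from such receptors, was low in both lines, at 3.74 and 3.41 CPM in the msx2 line and 1.31 and 1.60 CPM in the GFP line (1.30 ± 0.22, adjusted p = 0.00121). Vcam1, an adhesion receptor, had 50.4 and 47.4 CPM in the msx2 line and 55.3 and 52.6 CPM in the GFP line (adjusted p = 0.833). The list summed to 10700 and 10400 CPM in msx2-line and 9408 and 9205 CPM in GFP-line myoblasts. In uninduced myotubes the sum was higher, at 14000 to 14830 CPM in the msx2 line and 13420 to 14190 CPM in the GFP line. In msx2-line myoblasts Des, Itga7 and Spry1 were at 17.8, 23.0 and 9.63% of that line's myotubes, and Heyl and Fgfr4 at 584 and 308%. The list thus mixes genes that are high and low in myotubes.

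**Figure D4:**
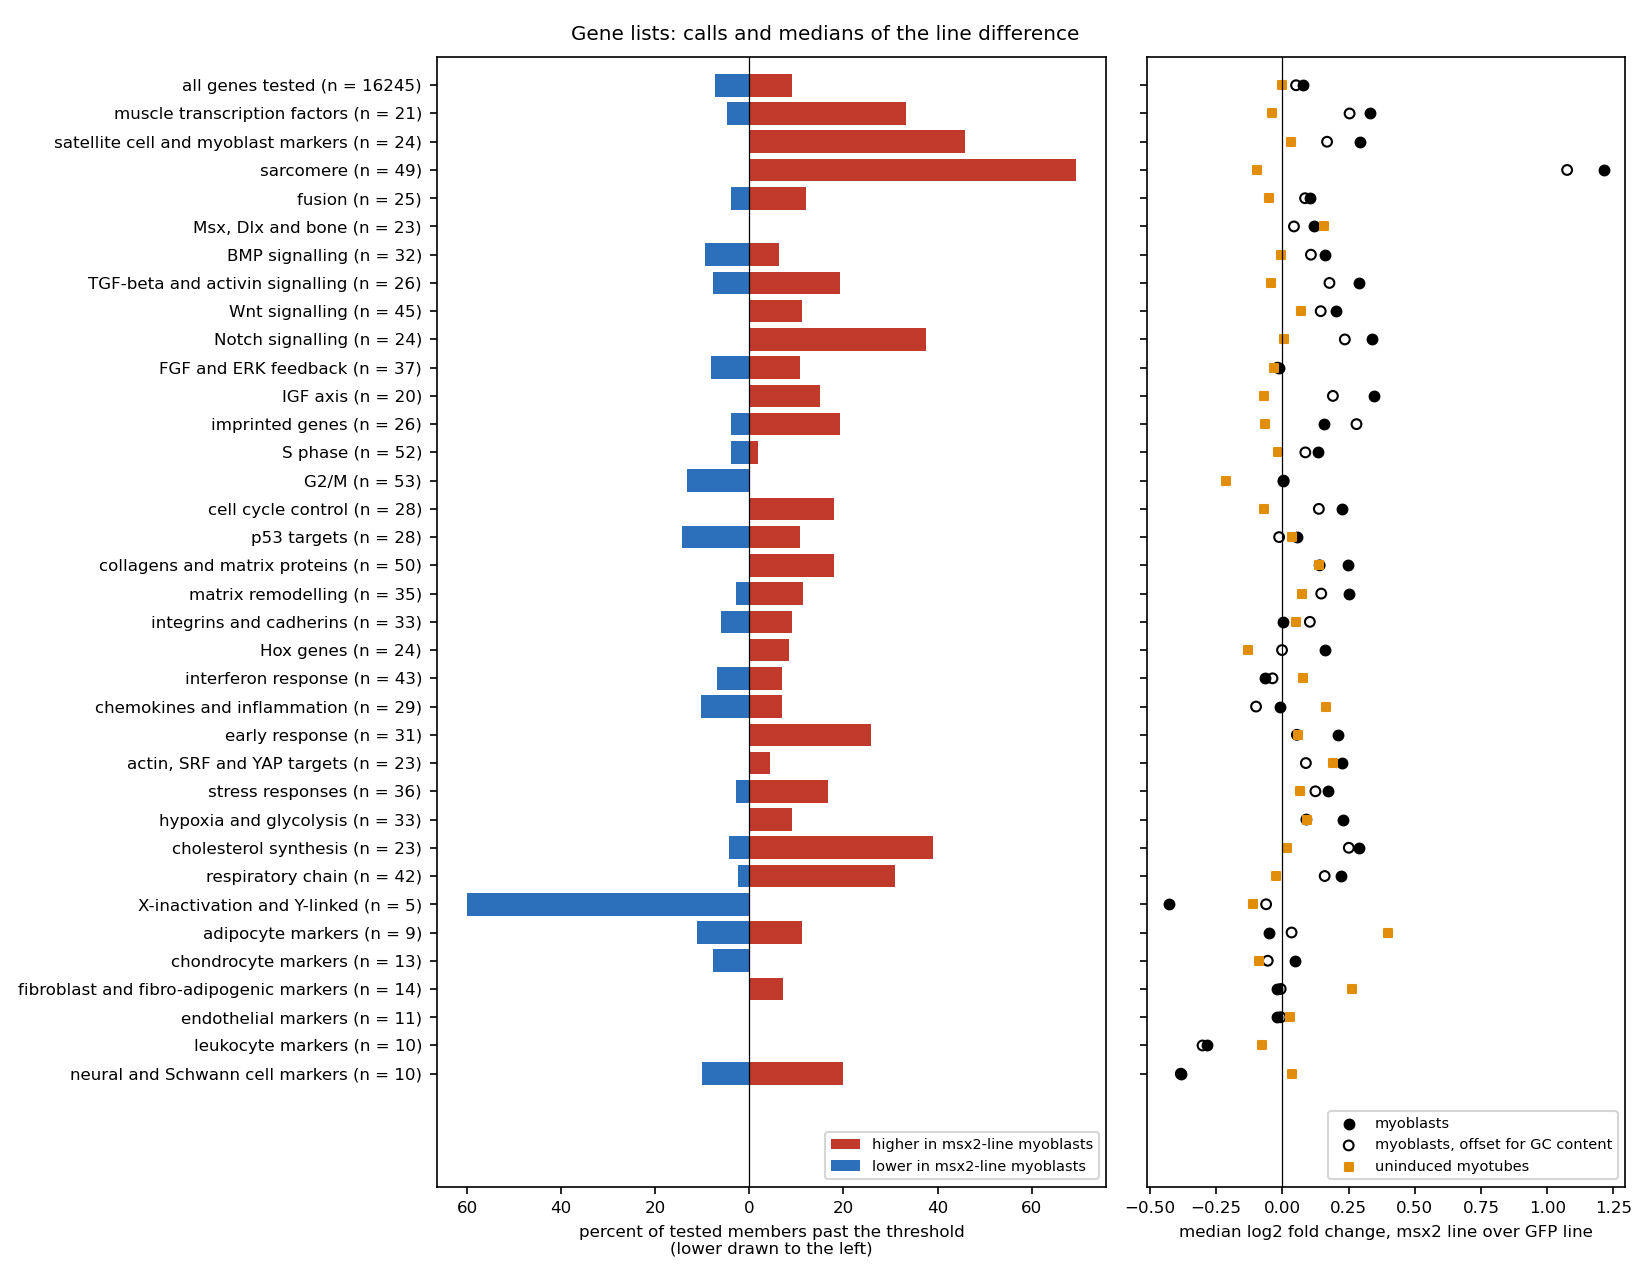
The 35 gene lists and all genes tested. One panel gives the percentage of tested members higher or lower in msx2-line myoblasts, and the other the median log2 fold change of msx2 line over GFP line in myoblasts, in myoblasts with the GC offset and in uninduced myotubes. The sarcomere list stands at 1.21, 1.07 and -0.10, and all genes tested at 0.08 and 0.05 in myoblasts without and with the offset.

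H19, an abundant noncoding RNA, and Igf2, a growth factor that promotes differentiation of myoblasts, are imprinted neighbours, and both were higher. H19 had 6660.0 and 6665 CPM in msx2-line and 3074 and 3039.8 CPM in GFP-line myoblasts (1.12 ± 0.11, adjusted p = 1.23e-05). Igf2 had 528 and 513 CPM in the msx2 line against 214 and 222 CPM in the GFP line (1.26 ± 0.16, adjusted p = 1.44e-04). For both the replicates of a line lay close together and the lines far apart. With the GC offset the differences were 0.94 and 1.07, and both passed without each myoblast library. Of 26 imprinted genes, 5 were higher (19.2%) and 1 lower (3.85%), where 9.09% and 7.24% of all genes were. With the GC offset the counts were 6 and 1, and 3 to 5 were higher without 1 myoblast library. Mest, encoding a hydrolase-like protein, had 719 and 725 CPM in the msx2 line and 466 and 492 CPM in the GFP line (0.59 ± 0.08, adjusted p = 1.03e-04), and Impact, a regulator of translation, was the lower gene, at 42.6 and 42.9 CPM in the msx2 line and 60.3 and 64.2 CPM in the GFP line (-0.54 ± 0.08, adjusted p = 3.31e-04). Of 20 genes of the IGF axis 3 were higher (15.0%), as many with the GC offset and 1 or 2 without 1 myoblast library. They were Igf2, its clearance receptor Igf2r (0.37 ± 0.08, adjusted p = 0.00466) and the binding protein Igfbp5. Igfbp5 had 548 and 532 CPM in the msx2 line and 235 and 249.8 CPM in the GFP line (1.16 ± 0.33, adjusted p = 0.0316). It did not pass with the GC offset (adjusted p = 0.0651). The strand setting of the counting is not given in the sources used here, so reads of Igf2r and its antisense gene Airn may be mixed.

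Of 52 S-phase genes 1 was higher (1.92%) and 2 lower (3.85%), below the shares of all genes, and 2 and 2 with the GC offset. E2f2, a cell cycle transcription factor, had 9.89 and 10.9 CPM in msx2-line and 5.55 and 6.20 CPM in GFP-line myoblasts (0.83 ± 0.15, adjusted p = 0.00149), and Pola1, the catalytic subunit of DNA polymerase alpha, was lower, at 36.3 and 35.9 CPM in the msx2 line and 54.7 and 58.8 CPM in the GFP line (-0.65 ± 0.09, adjusted p = 1.54e-04). Of 53 G2/M genes 7 were lower (13.2%, where 7.24% of all genes were) and none higher by edgeR. At an unadjusted p under 0.05 (edgeR) 2 were higher, and 1 by DESeq2. The median was 0.00 on the log2 scale. The mitotic kinesin Kif15 had 31.4 and 32.5 CPM in the msx2 line and 52.3 and 54.1 CPM in the GFP line (-0.74 ± 0.14, adjusted p = 0.00236), and the checkpoint kinase Bub1 had 45.3 and 47.3 CPM against 81.6 and 89.0 CPM in the GFP line (-0.88 ± 0.19, adjusted p = 0.00595). Under the GC offset 2 of the list were lower and 1 higher, 2 to 6 were lower without 1 myoblast library, and Bub1 did not pass (adjusted p = 0.0588). Summed levels were 6646 and 6472 CPM for G2/M genes in msx2-line and 7112 and 7135 CPM in GFP-line myoblasts, and 5262 and 5052 CPM for S-phase genes in the msx2 line and 4833 and 4744 CPM in the GFP line.

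Of 28 genes that control the cell cycle 5 were higher (17.9%, where 9.09% of all genes were) and none lower. At an unadjusted p under 0.05 (edgeR) 1 was lower, and none by DESeq2. Under the GC offset 4 were higher, and 3 or 4 without 1 myoblast library. Cdkn1a, for the inhibitor p21, had 131 and 132 CPM in msx2-line and 89.2 and 89.7 CPM in GFP-line myoblasts (0.55 ± 0.07, adjusted p = 1.17e-04). Gas1, a growth arrest gene, had 83.6 and 84.7 CPM in the msx2 line against 46.8 and 50.6 CPM in the GFP line (0.79 ± 0.09, adjusted p = 5.11e-05). Ccnd3, for cyclin D3, which accumulates as myoblasts differentiate, had 238 and 222 CPM against 148 and 153 CPM in the GFP line (0.62 ± 0.11, adjusted p = 0.00111). All 3 passed with the GC offset. Of 28 p53 target genes 3 were higher (10.7%, near the 9.09% of all genes), Cdkn1a among them, and 4 lower (14.3%, where 7.24% of all genes were). With the GC offset the counts were 2 and 4, and 1 or 2 were higher without 1 myoblast library. Mdm2, the negative regulator of p53, had 69.5 and 68.5 CPM in the msx2 line and 92.0 and 99.1 CPM in the GFP line (-0.47 ± 0.07, adjusted p = 5.64e-04), and Polk, a translesion DNA polymerase, had 13.0 and 11.8 CPM against 24.2 and 26.3 CPM in the GFP line (-1.03 ± 0.12, adjusted p = 5.99e-05).

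Of 50 collagens and other matrix proteins 9 were higher and none lower (edgeR; none at an unadjusted p under 0.05 and none by DESeq2), with 4 higher under the GC offset and 4 or 5 without 1 myoblast library. Fmod, for the small proteoglycan fibromodulin, had 31.0 and 26.3 CPM in msx2-line and 8.54 and 6.70 CPM in GFP-line myoblasts (1.91 ± 0.21, adjusted p = 3.44e-05). Loxl1, which crosslinks elastin, had 178 and 156 CPM in the msx2 line against 102 and 98.9 CPM in the GFP line (0.74 ± 0.09, adjusted p = 4.83e-05). Col8a2, a short-chain collagen, had 23.4 and 18.8 CPM against 8.12 and 8.12 CPM in the GFP line (1.38 ± 0.29, adjusted p = 0.0058), a call lost without either GFP-line library or msx2-line replicate 1. Islr, for a secreted protein with leucine-rich repeats, had 329.6 and 303 CPM in the msx2 line against 104 and 105 CPM in the GFP line (1.60 ± 0.40, adjusted p = 0.0192), lost in the same 3 cases and with the GC offset (adjusted p = 0.0509). Of the 12 largest rises, which include Fmod, Heyl, Sox8, Tmem8c and Myog, 11 passed with the GC offset and without each myoblast library. The exception was Islr2, at 3.12 and 2.55 CPM in the msx2 line and 0.467 and 0.958 CPM in the GFP line (1.98 ± 0.52, adjusted p = 0.019).

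Of 26 genes of TGF-beta and activin signalling, 5 were higher (19.2%) and 2 lower (7.69%), where 9.09% and 7.24% of all genes were. With the GC offset the counts were 2 and 0. Without 1 myoblast library 2 to 4 were higher and 1 or 2 lower. The ligand Tgfb3 had 50.6 and 49.9 CPM in msx2-line and 31.2 and 31.0 CPM in GFP-line myoblasts (0.69 ± 0.09, adjusted p = 1.42e-04), and Inhba, the subunit of activin A, was lower, at 48.6 and 43.4 CPM in the msx2 line and 73.2 and 76.5 CPM in the GFP line (-0.70 ± 0.14, adjusted p = 0.00414), though not with the GC offset. Of 45 Wnt genes 5 were higher (11.1%, near the 9.09% of all genes) and none lower. At an unadjusted p under 0.05 (edgeR) 1 was lower, and none by DESeq2. Under the GC offset 3 were higher, and 3 to 5 without 1 myoblast library. The ligand Wnt9a was among the 5, at 27.1 and 23.6 CPM in the msx2 line and 12.2 and 10.7 CPM in the GFP line (1.15 ± 0.18, adjusted p = 6.87e-04). Of 32 BMP genes 2 were higher and 3 lower, near the shares of all genes, 0 and 2 with the GC offset, and 0 or 1 higher and 2 lower without 1 myoblast library. The receptor Bmpr1a was lower, at 93.1 and 93.4 CPM in the msx2 line and 132 and 144 CPM in the GFP line (-0.57 ± 0.09, adjusted p = 5.91e-04). Of 23 Msx, Dlx and bone genes, a list without Msx2, none passed by edgeR, with 3 higher and 1 lower at an unadjusted p under 0.05 and 2 higher by DESeq2.

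Of 42 genes of the respiratory chain 13 were higher (31.0%) and 1 lower (2.38%), with a median of 0.22 on the log2 scale. Of 23 genes of cholesterol synthesis 9 were higher (39.1%) and 1 lower (4.35%), with a median of 0.29. Of all genes 9.09% were higher and 7.24% lower. With the GC offset 7 and 5 were higher, and without 1 myoblast library as few as 1 in each list. Sdhc, a subunit of complex II, differed by 0.37 ± 0.07 (adjusted p = 0.00249), and Lss, lanosterol synthase, by 0.51 ± 0.10 (adjusted p = 0.00344). Of 31 early response genes 8 were higher (25.8%) and none lower. At an unadjusted p under 0.05 (edgeR) 1 was lower, and none by DESeq2. Under the GC offset 1 was higher, and 0 to 5 without 1 myoblast library. The gene that passed with the GC offset was Fos, at 18.98 and 18.75 CPM in msx2-line and 7.70 and 9.76 CPM in GFP-line myoblasts (1.11 ± 0.24, adjusted p = 0.00651), a call lost without GFP-line replicate 1 or msx2-line replicate 1. Of 36 stress genes 6 were higher (16.7%) and 1 lower (2.78%), 3 and 1 with the GC offset, and 0 to 4 were higher without 1 myoblast library. The lower gene, Hsp90b1, the HSP90 chaperone of the endoplasmic reticulum, had 333 and 342 CPM in the msx2 line against 519 and 535 CPM in the GFP line (-0.64 ± 0.07, adjusted p = 4.40e-05).

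The genes lower in msx2-line myoblasts had a median transcript GC content of 41.7%, the higher genes 55.1% and all genes tested 49.6%. Median transcript length was 4486 bases for the lower genes, 3306 for the higher genes and 3280 for all genes tested. The part of length in the results was not tested. Of the 12 largest falls, 7 passed with the GC offset, and 2 passed without each myoblast library, Hsp90aa1 and Cys1. Hsp90aa1, the inducible cytosolic HSP90 chaperone, had 398 and 409 CPM in msx2-line and 875 and 953 CPM in GFP-line myoblasts (-1.18 ± 0.09, adjusted p = 1.22e-06), with -0.99 under the GC offset. Near-identical copies may share reads of this gene. Cys1, for the cilium protein cystin, had 8.33 and 9.00 CPM in the msx2 line against 18.3 and 21.8 CPM in the GFP line (-1.21 ± 0.13, adjusted p = 1.98e-05), with -1.44 under the GC offset.

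The calls of the other large falls were each lost without at least 1 myoblast library. Tnfrsf11b, for osteoprotegerin, a decoy receptor that blocks osteoclast formation, had 3.39 and 3.45 CPM in msx2-line and 11.9 and 11.1 CPM in GFP-line myoblasts (-1.75 ± 0.40, adjusted p = 0.00953), lost without either GFP-line library or msx2-line replicate 1. Col2a1, the collagen of cartilage, had 13.2 and 10.8 CPM in the msx2 line against 32.1 and 30.3 CPM in the GFP line (-1.38 ± 0.31, adjusted p = 0.00841), lost without any 1 of the 4 libraries. Crabp1, which binds retinoic acid in the cell, had 3.74 and 3.78 CPM against 8.91 and 8.21 CPM in the GFP line (-1.18 ± 0.29, adjusted p = 0.0121), likewise lost without any 1 of the 4. A lack of overlap between the libraries of the lines was a condition for choosing these genes, and adds no support. Kctd12b had 3.43 and 3.41 CPM in the msx2 line against 12.3 and 12.2 CPM in the GFP line (-1.84 ± 0.43, adjusted p = 0.0114), and did not pass with the GC offset (adjusted p = 0.0544) or without any 1 of the 4. Bdnf, a neurotrophin outside these 12, had 16.6 and 16.3 CPM against 30.8 and 32.2 CPM in the GFP line (-0.94 ± 0.16, adjusted p = 0.00138), and passed with the GC offset and without each library. Prl2c1, Prl2c5, Ifi204 and Ifi205 belong to families of near-identical copies, and their counts are uncertain.

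Markers of other cell types gave no common direction. Endothelial markers summed to 25.7 and 30.9 CPM in msx2-line and 30.9 and 31.2 CPM in GFP-line myoblasts, and leukocyte markers to 28.7 and 36.1 CPM in the msx2 line and 37.9 and 36.4 CPM in the GFP line. None of the 11 and 10 members tested passed by edgeR (0 and 1 at an unadjusted p under 0.05 and none by DESeq2). Fibroblast and fibro-adipogenic markers summed to 1286 and 1291 CPM in the msx2 line and 1256 and 1170 CPM in the GFP line. Of the 14 tested, 7 had a positive difference, and the median was -0.02 on the log2 scale. Only 1 was higher (7.14%), the growth factor receptor Pdgfrb. Its levels were 258 and 244 CPM in the msx2 line and 146 and 142 CPM in the GFP line (0.80 ± 0.17, adjusted p = 0.00656). Of 9 adipocyte markers 1 was higher and 1 lower (0 and 1 with the GC offset), and of 13 chondrocyte markers Col2a1 was lower (1 higher and 1 lower with the GC offset). Of 10 neural and Schwann cell markers 2 were higher, among them the neuregulin receptor Erbb3 (1.35 ± 0.17, adjusted p = 6.96e-05), and 1 was lower, with 1 and 1 under the GC offset. The Y-linked genes Uty, Eif2s3y and Ddx3y were lower in the msx2 line, by -0.67, -0.47 and -0.43 on the log2 scale, and none of them passed with the GC offset.

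In uninduced myotubes 1 gene was higher in the msx2 line, Msx2 itself, and 9 were lower, together 0.0616% of the genes tested (0.00616% higher and 0.0554% lower; edgeR, 755 higher and 829 lower at an unadjusted p under 0.05, and 55 higher and 99 lower by DESeq2). With the replicate number as a block, 81 were higher and 92 lower. Msx2 was at 13.7 ± 1.94 CPM in msx2-line and 1.11 ± 0.0723 CPM in GFP-line myotubes (SD, n = 3 each), a difference of 3.62 ± 0.13 on the log2 scale (adjusted p = 3.85e-10, edgeR). Of the 1476 genes higher in msx2-line myoblasts, 52.0% had a positive difference in myotubes, with a median of 0.01, and 1 was called higher there and none lower (edgeR; 149 higher and 136 lower at an unadjusted p under 0.05, and 17 and 18 by DESeq2). With the replicate block in both comparisons, 36 genes were higher in both stages and 4 lower in both, and 17 and 3 with the block and the GC offset. Of the 1176 lower genes, 44.3% had a positive difference, with a median of -0.02, and none was called (edgeR; 36 higher and 83 lower at an unadjusted p under 0.05, and 2 and 6 by DESeq2).

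The difference between the stages was tested itself, as the myoblast difference minus the myotube difference. It was positive for 694 genes (4.27%) and negative for 651 (4.01%), together 8.28% of those tested. These tests use the same myoblast libraries that chose the 1476 and 1176 genes, so it is a description that 572 of the higher genes are among the 694 and 622 of the lower genes among the 651. None of 49 sarcomere genes was called in myotubes (edgeR; 0 higher and 6 lower at an unadjusted p under 0.05 and none by DESeq2), where the median difference was -0.10 on the log2 scale, and for 29 of 49 the difference between the stages was positive and past the threshold. For Myog the difference was 0.03 ± 0.08 in myotubes (adjusted p = 0.941) and the difference between the stages 1.78 ± 0.12 (adjusted p = 7.98e-07, edgeR). For Heyl the difference between the stages was 2.41 ± 0.13 (adjusted p = 1.07e-07), and for Hsp90aa1, with 0.23 ± 0.07 in myotubes, it was -1.41 ± 0.11 (adjusted p = 4.27e-06). H19 and Igf2 differed by -0.13 ± 0.09 and 0.02 ± 0.13 in myotubes, which did not pass (adjusted p = 0.684 and 0.973). Pax7 did not pass at either stage, and its difference between the stages was 1.15 ± 0.28 (adjusted p = 0.0226).

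**Figure D5:**
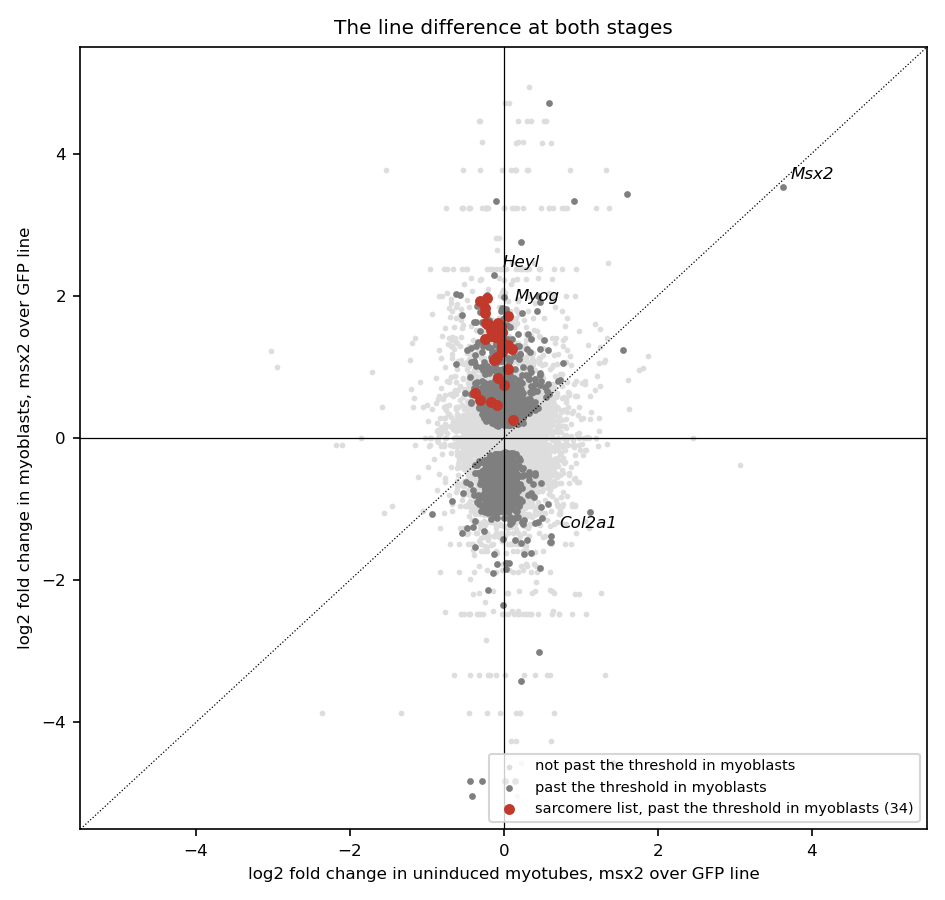
Log2 difference between the lines in uninduced myotubes (horizontal axis) and in myoblasts (vertical axis) for the genes tested, with msx2 line over GFP line on both axes. Red points are the 34 sarcomere genes higher in msx2-line myoblasts, which lie above 0 on the vertical axis, and Msx2 stands at 3.62 in myotubes and 3.53 in myoblasts.

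Between induced and uninduced msx2-line myotubes 5287 genes differed, 32.5% of those tested, with 2635 higher and 2652 lower in induced myotubes. Doxycycline, GFP and msx2 change together in this comparison, and their parts were not tested. Induced GFP-line myotubes, which received doxycycline without the msx2 construct, were not compared with uninduced ones here. The comparison of induced with uninduced msx2-line myotubes shares no library with that between the myoblasts of the lines. Of the 1476 genes higher in msx2-line myoblasts, 507 (34.3%) were higher and 231 (15.7%) lower after induction, where 16.2% and 16.3% of all genes were. These 507 are 19.2% of the genes higher after induction. Of the 1176 lower genes, 67 (5.7%) were higher and 260 (22.1%) lower after induction. With the GC offset in both comparisons, 208 of the 735 higher genes (28.3%) were higher after induction, where 18.6% of all genes were, and 159 (21.6%) lower, where 17.1% were. For the lower genes the order turned round with the offset: 133 of 434 (30.6%) were higher and 53 (12.2%) lower after induction. The replicate block, in both comparisons, gave 850 of 2354 higher genes (36.1%) higher after induction and 422 of 1510 lower genes (27.9%) lower, where 19.1% and 19.2% of all genes were. Under the block and the GC offset 412 of 1313 (31.4%) were higher in both and 114 of 688 (16.6%) lower in both, where 21.9% and 20.0% of all genes were.

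Sarcomere genes were more often lower than higher after induction. Of the 49 tested, 8 were higher and 26 lower after induction, and of the 34 higher in msx2-line myoblasts 4 were higher and 20 lower. After induction Myh3 fell, with a difference of -1.99 ± 0.11 on the log2 scale (adjusted p = 4.83e-09, edgeR), as did Klhl41, with -2.02 ± 0.16 (adjusted p = 6.14e-07), and Myog, with -0.41 ± 0.08 (adjusted p = 6.04e-04). Notch genes included members higher in both: Heyl, Dll1, with 1.90 ± 0.19 after induction (adjusted p = 2.32e-06), and Lfng, with 1.94 ± 0.14 (adjusted p = 6.34e-08). Hes6 was higher in msx2-line myoblasts and lower after induction, by -0.72 ± 0.08 (adjusted p = 7.83e-06). Sox8 was higher in both, with 2.43 ± 0.25 after induction (adjusted p = 2.25e-06).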

How the data were processed

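Poly(A) RNA of 16 libraries was sequenced after preparation with a stranded mRNA kit (500 ng RNA and 12 PCR cycles per the labels' protocols). The values are read counts per gene that the authors deposited. TopHat2 2.0.11, SAMtools 0.1.19, edgeR 3.6.8 and mm9 are named in the submitters' processing notes, without roles, and no source used here gives the counting settings. The table's entries that lack a symbol, 67 of 19866, held 0.0601 to 0.0878% of reads and were left out.

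All 16 libraries were fitted with edgeR 4.0.16 (quasi-likelihood, robust, TMM scaling, a coefficient per group, filterByExpr with a minimum count of 10), with two-sided tests and Benjamini-Hochberg adjustment over 16245 genes at 0.05. The residual degrees of freedom were 10. SE is the log2 fold change divided by the square root of F. On simulated counts for the myoblast comparison (16245 genes), 88 of 100 genes changed by 1 on the log2 scale and 99 of 100 changed by 2 were recovered. Of 16045 unchanged genes 12 were called. The changed genes were drawn only from genes above a minimum expected count. No GC gradient and no change as small as the median call (0.44) was simulated. Transcript GC content was that of the longest GENCODE transcript of each symbol (18657 direct matches and 983 by older symbols of 19799). RefSeq served only to translate the older symbols.

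The genes named were Msx2, the 12 largest rises and 12 largest falls in myoblasts (past the threshold, at least 2 CPM in the higher group, no overlap, no predicted genes), up to 2 higher and 2 lower members of each list by adjusted p, the MyoD family, Pax3, Pax7, Msx1 and Msx3, the 5 largest differences each way between stages, and the 5 largest each way shared with induction. Some genes that this rule picks are not reported here. Further list members were chosen after their values were seen. The members and lists were chosen with earlier results of these data known. Replicate numbers paired uninduced msx2-line with GFP-line myotubes (correlations of deviations 0.177, 0.274 and 0.288) and with induced msx2-line myotubes (0.394, 0.508 and 0.207), and did not pair myoblasts. DESeq2 1.42.0, other scalings and filters, the block, the GC offset, fits of only the compared groups and leaving out each library were alternatives. Depth ran between 19772048 and 33070931 reads, and reads without molecular identifiers are not independent molecules.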

Additional observations from a re-analysis of the deposited data

Results flagged for a closer look

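The line difference itself differed between myoblasts and uninduced myotubes for 694 genes in the positive direction and 651 in the negative, by a test of the difference between the stages (edgeR, adjusted p under 0.05). Genes with the largest such values are given here.

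Heyl, the Notch target, had a difference between the stages of 2.41 ± 0.13 on the log2 scale (adjusted p = 1.07e-07, edgeR), past the threshold under every alternative run. Chi3l1, a secreted chitinase-like protein, gave 2.68 ± 0.76 (adjusted p = 0.038), with 0.446 and 0.617 CPM in msx2-line and 0.0933 and 0.137 CPM in GFP-line myoblasts, against 6.78 ± 1.77 CPM in msx2-line and 9.84 ± 1.91 CPM in GFP-line myotubes. Mfap4, a microfibril protein, gave 2.64, and Dhrs7c, an enzyme of the sarcoplasmic reticulum, gave 2.54. Apart from Heyl, the myoblast levels of these genes were below 2 CPM.

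In the other direction, Plac8 gave -2.16 ± 0.39 (adjusted p = 0.00299) and was past the threshold under every alternative run, with 0.980 and 1.27 CPM in msx2-line and 2.24 and 2.42 CPM in GFP-line myoblasts. Col2a1, the cartilage collagen, gave -1.99, the interferon-inducible Ifi205 gave -1.97, Vmn2r55 gave -1.87 and Trim12c gave -1.82. In myoblasts Vmn2r55 had only 0.178 and 0.0822 CPM in the msx2 line and 0.467 and 0.319 CPM in the GFP line. It was not called there (adjusted p = 0.0632, edgeR). Trim12c was low too, at 0.357 and 0.535 CPM in msx2-line and 1.82 and 1.23 CPM in GFP-line myoblasts. Ifi205, Vmn2r55 and Trim12c have near-identical relatives, so their counts are uncertain. Apart from Heyl and Plac8, the calls of the genes named here were each lost without at least 1 library.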

How the results depend on the processing

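Of 119 named genes tested in myoblasts 111 were past the threshold, 69 of them also with the GC offset and 68 under all 9 alternatives that used all libraries. Only 47 were called the same way under every alternative run, single libraries left out included. In myoblasts the count of higher genes was 735 with the GC offset, 4196 with only the compared groups, 2354 with the replicate block and 829 with upper-quartile scaling, and that of lower genes 434 with the GC offset, 2002 with only the compared groups and 688 with the replicate block and GC offset. Leaving out 1 library gave 263 to 1190 higher and 510 to 1073 lower. Replicate numbers did not pair the myoblast libraries (correlation of deviations 0.0401). In uninduced myotubes the count of higher genes was 55 by DESeq2, 2 with the GC offset, 2 with RLE scaling, 4 with the 5 CPM filter, 5 without a low-count filter, 81 with the replicate block, 98 with the replicate block and GC offset and 4 with upper-quartile scaling. That of lower genes was 99 by DESeq2, 15 without a low-count filter, 0 with only the compared groups, 92 with the replicate block and 121 with the replicate block and GC offset. Leaving out 1 library gave 1 to 6 higher and 1 to 16 lower. For the difference between the stages the positive count was 1116 by DESeq2, 369 with the GC offset, 1294 with the replicate block and 445 with upper-quartile scaling, and the negative count 205 with the GC offset and 399 with the replicate block and GC offset. Leaving out 1 library gave 173 to 850 positive and 267 to 812 negative. Counts for induction stayed within 1.5 times, at 2251 to 2631 higher and 2189 to 2608 lower without 1 library. Pax3, at 0.00 on the log2 scale, was -0.010 with the GC offset, -0.039 with the 5 CPM filter, -0.004 without a low-count filter, -0.000 with the replicate block, -0.011 with the replicate block and GC offset and -0.059 with upper-quartile scaling, and -0.090 to 0.084 without 1 myoblast library. The cause of these shifts was not tested. With 2 libraries a group, precision in myoblasts rests on the spread of the whole series.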

Other observations

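Several other lists held calls in myoblasts at about the share of all genes tested (9.09% higher and 7.24% lower). Of 24 Hox genes 2 were higher (8.33%), Hoxc10 and Hoxc9, by 0.33 and 0.36 on the log2 scale, and neither passed with the GC offset. Of 33 genes of hypoxia and glycolysis 3 were higher (9.09%) and of 23 actin, SRF and YAP target genes 1 (4.35%), and none of these passed with the GC offset. Car9, the carbonic anhydrase induced by hypoxia, had 0.758 and 0.905 CPM in msx2-line and 0.420 and 0.274 CPM in GFP-line myoblasts (1.26 ± 0.34, adjusted p = 0.0221) (edgeR), a call lost without any 1 of the 4 libraries.

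Of 43 interferon response genes 3 were higher and 3 lower (6.98% each), 1 and 1 with the GC offset, and of 29 genes of chemokines and inflammation 2 were higher (6.9%) and 3 lower (10.3%), 0 and 1 with the GC offset. Irf9, a subunit of the interferon-activated factor ISGF3, had 7.31 and 6.25 CPM in msx2-line and 4.01 and 4.29 CPM in GFP-line myoblasts (0.71 ± 0.19, adjusted p = 0.018) (edgeR), lost without either GFP-line library or msx2-line replicate 1. Ptgs2, the inducible cyclooxygenase, had 424 and 399 CPM in the msx2 line against 675 and 711 CPM in the GFP line (-0.75 ± 0.17, adjusted p = 0.00824) (edgeR), and did not pass with the GC offset. Of 35 genes of matrix remodelling 4 were higher (11.4%) and 1 lower (2.86%), and 1 and 1 with the GC offset. Adam8, a membrane protease, had 14.2 and 15.1 CPM in the msx2 line against 8.91 and 10.1 CPM in the GFP line (0.62 ± 0.13, adjusted p = 0.00382) (edgeR), lost without GFP-line replicate 1, and Adam9 had 223 and 219 CPM against 288 and 295 CPM in the GFP line (-0.40 ± 0.09, adjusted p = 0.00792) (edgeR), lost without GFP-line replicate 2 or msx2-line replicate 1.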
